A study of Mus musculus with 6 samples.

Results

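Receptor tyrosine kinases are cell-surface proteins that bind a growth factor outside the cell and phosphorylate tyrosines inside it. The transcripts described here are those of 37 mouse genes of this class or related to it. They were taken by a list of gene names that leaves out the ERBB receptors, the Eph receptors and KIT. All 37 were found among the 19938 genes tested, through 38 probe sets, of which 1 per gene was read. Membership follows gene names, but the list was drawn up with earlier results of these data known. The cells were Melan-Ink4a, an immortal pigment cell line from C57BL/6J skin that is null for Ink4a-ARF1, a tumour suppressor locus. NRG1 cells received 10 nM of the growth factor NRG1-b1 for 21 days and untreated cells did not, with 3 arrays in each group. The medium of both groups held 200 pM cholera toxin and the phorbol ester TPA at 200 nM, and 200 ng of total RNA from 90% confluent cells went onto each Affymetrix mouse Gene 1.0 ST array. The labels give the untreated cells no time in culture. They also leave unstated whether replicates were grown apart, so p-values here cover array-to-array spread alone, and that spread may be technical. The whole experiment rests on 1 cell line, and in such bulk RNA fewer cells of a type and less RNA per cell cannot be told apart.

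A growth factor usually brings receptors together in pairs, and adaptor proteins then bind the phosphorylated tails and pass the signal to the ERK and PI3K-AKT pathways. Pigment cells are known to respond to several ligands of this class besides neuregulin, among them hepatocyte growth factor through MET and basic fibroblast growth factor through the FGF receptors. Some relatives, such as FGFRL1, RYK and PTK7, lack kinase activity and act as decoys or co-receptors. The comparison asks which of these receptors have different transcript levels after prolonged NRG1 exposure.

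Within the 37 genes, 3 rose and 4 fell with NRG1, and 30 did not pass the test. A gene is called, and said to have risen or fallen, where the adjusted p of limma over all genes was under 0.05. Fgfr2, Met, Ror1 and Insr fell, and Fgfrl1, Fgfr1 and Axl rose. The 7 calls are 18.9% of the receptor genes, and 20.9% of all genes were called, so the share of changed genes was near that of the array as a whole. By direction, 12.3% of all genes rose and 8.56% fell, which makes 59.0% of calls rises, and after quantile normalization 48.5% were rises. The median difference was -0.043 on the log2 scale over the receptors and -0.029 over all genes, and the median size of a difference was 0.081 and 0.103. In 10 of the 37 receptors the 3 NRG1 values lay entirely on one side of the 3 untreated values (27.0%), against 36.7% of all genes. These 10 were the 7 called genes and Insrr, Flt3 and Kdr. At an unadjusted p under 0.05 there were 11 receptors, against 32.0% of all genes. Differences over 0.5 in size were found in 4 receptors, Fgfr2, Met, Ror1 and Fgfrl1, and in 6.26% of all genes.

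All 7 calls fell among the 16 receptors whose mean signal lay above the median level of all genes, 7.17 on the log2 scale. That is 43.8% of those 16, and 33.3% of all genes above the median were called. Of the 21 receptors at or below it, 0 were called by limma (8.47% of all such genes were), and 20 of them were under the array median on every array. Array signals near background are compressed, so differences in these 21 can be understated. In 17 of the 21, untreated replicate 2 was the lowest of the 3 untreated arrays, and the same array was lowest for 58.1% of all genes at or below the median.

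**Figure D1:**
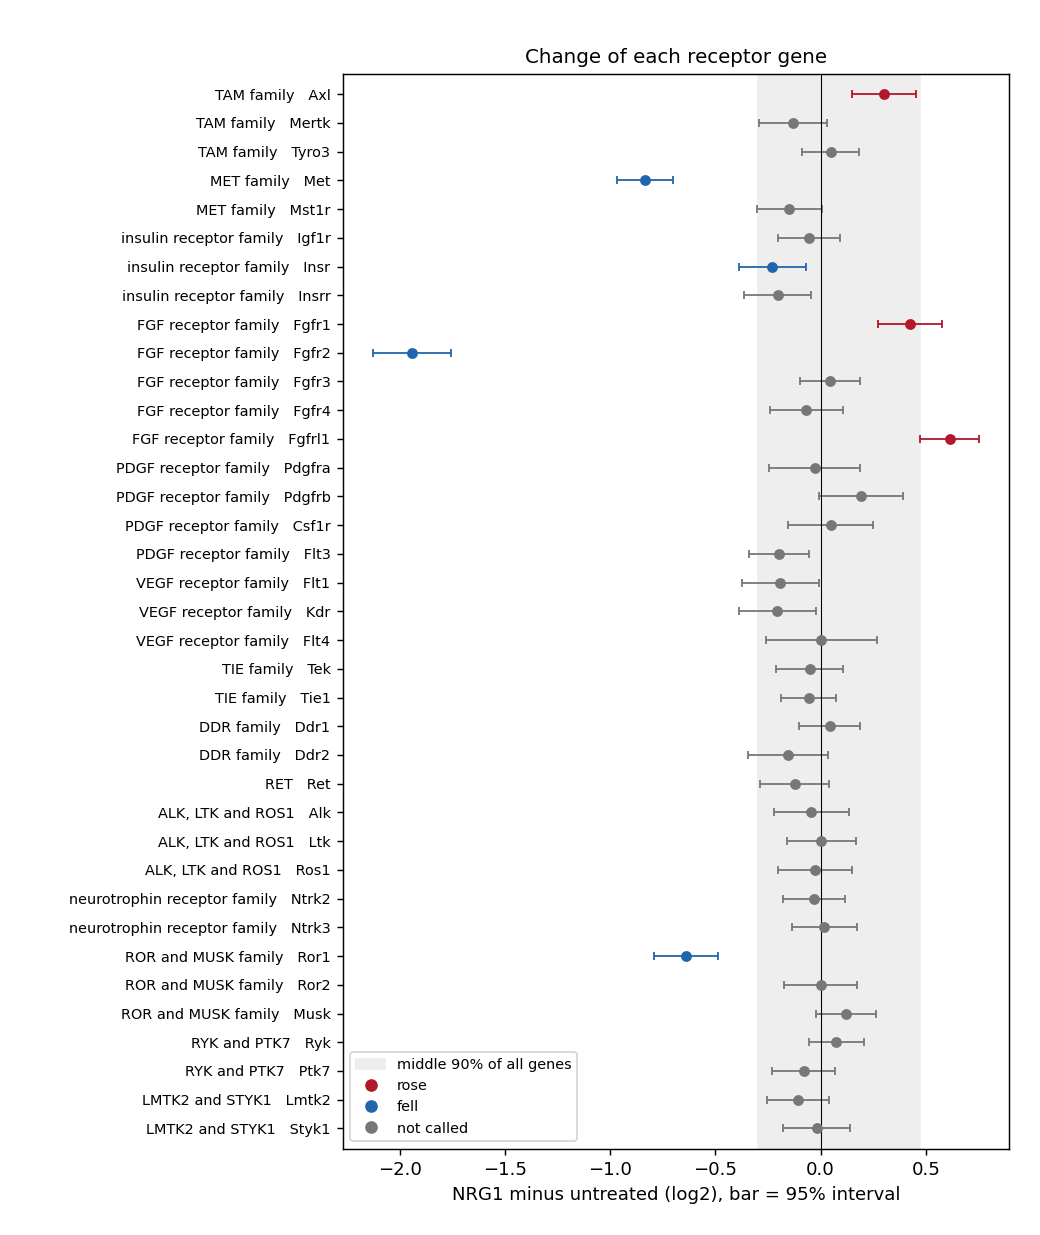
Difference between NRG1 and untreated cells in log2 units for each of the 37 receptor genes, with its 95% interval, grouped by family. Red points rose, blue points fell and grey points did not pass the test, and the shaded band holds the middle 90% of all genes. Fgfr2, at -1.94, lies furthest from 0, and 30 of the 37 intervals belong to genes that were not called.

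The FGF receptors held the widest span of any family, from a fall of Fgfr2 to a rise of Fgfrl1. Fgfr2 encodes a receptor whose splice forms bind different sets of fibroblast growth factors, and its probe set does not tell the forms apart in the sources used here. Its signal was 8.49, 8.75 and 8.80 on the untreated arrays and 6.70, 6.79 and 6.73 with NRG1, on the log2 scale. Every NRG1 array lay far below every untreated one, and the NRG1 values were under the median level of all genes, where a difference can be understated. The difference was -1.94 ± 0.083 (SE, 3 arrays per group), a 3.84-fold lower signal (limma, adjusted p = 1.44e-07). Ordered by difference, it stood at rank 14 among the falls of all 19938 genes.

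Fgfrl1 encodes a receptor that binds FGF but has no kinase domain. Its values were 9.36, 9.42 and 9.31 untreated and 10.04, 9.96 and 9.93 with NRG1. The groups did not overlap, and Fgfrl1 rose by 0.61 ± 0.062 (SE) or 1.53-fold (limma, adjusted p = 5.37e-05). Fgfr1, the receptor that basic FGF acts through in many mesenchymal and neural crest cells, gave 7.56, 7.51 and 7.37 untreated and 7.90, 7.86 and 7.94 with NRG1. The groups again stood apart, by 0.42 ± 0.068 (SE) or 1.34-fold (limma, adjusted p = 0.00123). Fgfr3 and Fgfr4 did not pass the test, with differences of 0.045 and -0.068 (limma, adjusted p = 0.695 and 0.615).

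The unequal change of these relatives was tested on the difference between 2 genes within each array, with an exact 2-sided permutation test over the 6 arrays. The smallest p that 3 arrays against 3 can give is 0.1, so no pair can pass 0.05, and 37 pairs within families were compared. Fgfr1 minus Fgfr2 moved by 2.36 on the log2 scale and Fgfr2 minus Fgfrl1 by -2.55, each with the groups fully apart (exact permutation p = 0.1, adjusted p = 0.231). Fgfr1 and Fgfrl1 differed by less, with Fgfr1 minus Fgfrl1 at -0.19 (exact permutation p = 0.1, adjusted p = 0.231). Fgfr3 minus Fgfr4 moved by 0.11 with overlapping groups (exact permutation p = 0.3). In all, 16 of the 37 pairs reached the smallest p. Of these, 9 were FGF receptor pairs and 2 were PDGF receptor pairs without a called member. Reaching it means only that the groups stood apart, as 36.7% of all single genes did. The share among pairs drawn from all genes was not computed. Pairs that share a gene are not independent, and a pair with a called member largely repeats that gene's own difference.

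**Figure D2:**
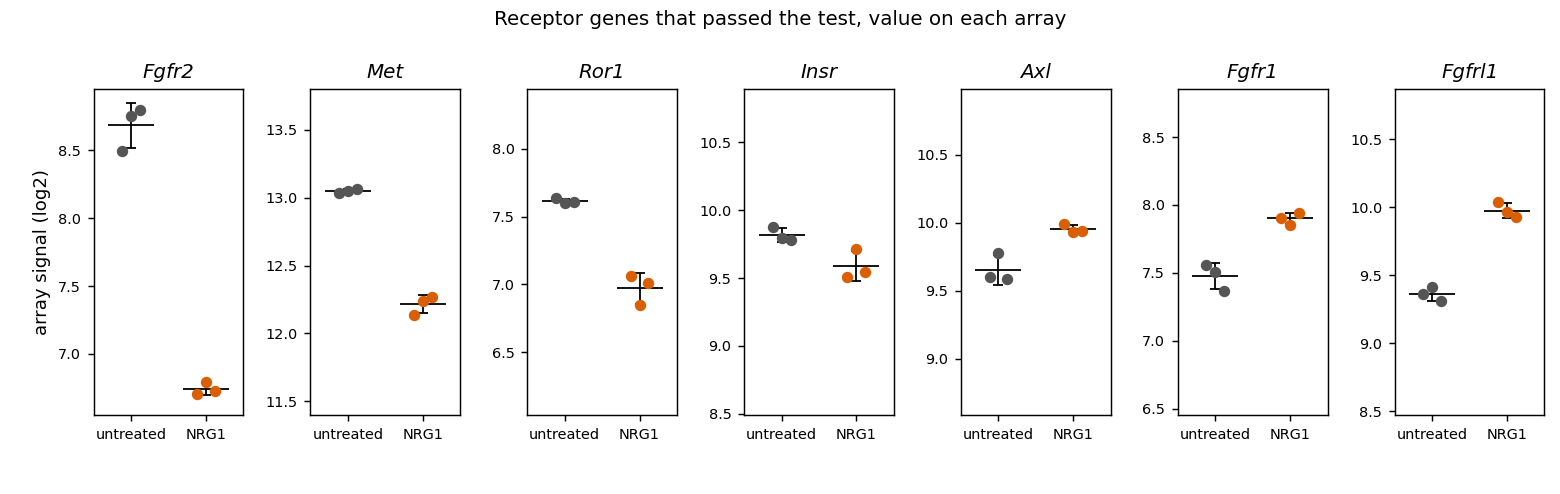
Array signal in log2 units for the 7 receptor genes that passed the test, with a point for each of the 3 untreated (grey) and 3 NRG1 (orange) arrays, the mean as a horizontal line and the SD as an error bar. Each panel spans the same height, so the drop of Fgfr2 from a mean of 8.68 to 6.74 can be set against the smaller shift of Insr from 9.82 to 9.59.

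Met fell as well. It encodes the receptor for hepatocyte growth factor, which drives motility and growth of pigment cells. Its signal was 13.04, 13.05 and 13.06 untreated and 12.14, 12.24 and 12.27 with NRG1. All 3 NRG1 arrays were lower than all 3 untreated arrays, by 0.83 ± 0.060 (SE) on average, or 1.78-fold (limma, adjusted p = 5.16e-06). Signals this bright can be compressed by saturation, so the difference can be understated. Mst1r, its relative and the receptor for macrophage-stimulating protein, gave 6.69 ± 0.111 untreated and 6.54 ± 0.041 with NRG1 (SD, n = 3 each), and the difference of -0.15 was not called (limma, adjusted p = 0.178), although array weights (0.043) and the fit without untreated replicate 2 (0.0483) called it. Within arrays Met minus Mst1r moved by -0.69 (exact permutation p = 0.1).

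The starts of the genes with the steepest changes are shown as the RefSeq windows of 300 bases, from 250 before to 50 after the annotated start, in assembly GRCm38.p6. Such a window was given for 29 of the 37 receptors and for 5 of the 7 called ones. The 3 shown are those of Fgfr2 (chr7:130266759-130267058, minus strand), Met (chr6:17463707-17464006, plus strand) and Fgfrl1 (chr5:108693979-108694278, plus strand), because they are the steepest 2 falls and the steepest rise. Capitals mark every match on either strand to GGGCGG (the GC box), CACGTG and CATGTG (E-boxes of the kind that MITF binds), TGACTCA (AP-1), TGACGTCA (cyclic AMP response), CCGGAAGT (ETS) or TATAAA (a core promoter element).
Fgfr2: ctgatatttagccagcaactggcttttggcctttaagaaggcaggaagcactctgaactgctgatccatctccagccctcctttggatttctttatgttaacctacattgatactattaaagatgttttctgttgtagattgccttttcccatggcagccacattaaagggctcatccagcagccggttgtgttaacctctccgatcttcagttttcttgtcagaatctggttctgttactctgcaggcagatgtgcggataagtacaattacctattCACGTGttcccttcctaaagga
Met: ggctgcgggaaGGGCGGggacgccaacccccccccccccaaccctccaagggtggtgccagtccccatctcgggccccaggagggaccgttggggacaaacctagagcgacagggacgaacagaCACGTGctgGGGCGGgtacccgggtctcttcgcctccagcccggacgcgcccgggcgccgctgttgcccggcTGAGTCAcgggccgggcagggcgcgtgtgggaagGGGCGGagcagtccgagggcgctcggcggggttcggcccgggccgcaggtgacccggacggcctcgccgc
Fgfrl1: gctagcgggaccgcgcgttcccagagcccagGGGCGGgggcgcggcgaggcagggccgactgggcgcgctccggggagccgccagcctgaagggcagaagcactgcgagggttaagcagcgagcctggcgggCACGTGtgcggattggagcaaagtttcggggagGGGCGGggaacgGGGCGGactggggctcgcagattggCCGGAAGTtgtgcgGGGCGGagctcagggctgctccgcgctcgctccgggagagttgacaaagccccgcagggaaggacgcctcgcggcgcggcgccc

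All 3 windows hold CACGTG, which 7.15% of the 32851 windows of this length hold. In Fgfr2 it begins at base 29, with the start counted as base 1. In Met and Fgfrl1 it begins 126 and 118 bases before the start. Over the receptors, 4 of 29 had it (13.8%), the other one being Flt3, and the windows of Axl and Ror1 did not. The 29 are genes, some with several windows, whereas the 7.15% is a share of windows. Of the 29, 23 had G and C at or above the median of all windows. Met also holds an AP-1 match (5.20% of all windows) and Fgfrl1 an ETS match (3.89%). GC boxes numbered 3 in Met, 4 in Fgfrl1 and 0 in Fgfr2, and 35.7% of all windows have at least 1. The Fgfr2 window is 43.7% G and C with 4 CpG, whereas those of Met and Fgfrl1 are 75.7% and 73.7% with 34 and 37, and the median of all windows is 52.7% with 7. None of the 7 motifs shares bases with another in these windows. The same E-box is present at 2 genes that fell and 1 that rose, and a match is a description of letters, not of a bound factor.

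Ror1 was the other steep fall. It encodes a receptor of the ROR family, which binds Wnt5a and has weak or no kinase activity. Its values were 7.63, 7.60 and 7.60 untreated and 7.06, 6.85 and 7.01 with NRG1, without overlap. Ror1 fell by 0.64 ± 0.069 (SE) or 1.56-fold (limma, adjusted p = 8.50e-05). Ror2, its close relative, stayed at 7.45 ± 0.131 untreated and 7.45 ± 0.071 with NRG1 (SD, n = 3 each; limma, adjusted p = 0.996), with a 95% interval of the difference from -0.17 to 0.17. Ror1 minus Ror2 moved by -0.64 within arrays (exact permutation p = 0.1). Musk, the agrin-responsive receptor of the muscle synapse, was not called at 0.12 (limma, adjusted p = 0.24).

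In the TAM family, named for TYRO3, AXL and MERTK and known for binding GAS6 and protein S, only Axl passed the test. Axl gave 9.60, 9.78 and 9.58 untreated and 9.99, 9.93 and 9.94 with NRG1. The groups did not overlap, with untreated replicate 2 closest to the NRG1 arrays, and the rise was 0.30 ± 0.069 (SE) or 1.23-fold (limma, adjusted p = 0.0105). The call ended without untreated replicate 1 (0.27, adjusted p = 0.0511) and against a minimum change of 1.2-fold. Over 16 alternative settings the adjusted p ran from 0.000787 to 1.0. Mertk and Tyro3 differed by -0.13 and 0.048 and were not called (limma, adjusted p = 0.25 and 0.651). Axl minus Mertk moved by 0.43 and Axl minus Tyro3 by 0.25 within arrays (exact permutation p = 0.1 each).

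The insulin receptor gene, Insr, fell by the smallest step of the 7. It was at 9.88, 9.79 and 9.78 untreated and 9.51, 9.71 and 9.54 with NRG1, a difference of -0.23 ± 0.071 (SE; limma, adjusted p = 0.0451). The groups stood apart by a narrow gap between NRG1 replicate 2 and untreated replicate 3. Its call ended under 7 of 16 settings, which include the replicate block (adjusted p = 0.0812) and the fits without NRG1 replicates 1 and 3 (adjusted p = 0.162 and 0.14) or untreated replicates 1, 2 and 3 (0.161, 0.0626 and 0.0721). The adjusted p ran from 0.00841 to 1.0 over the 16. A further probe set of Insr gave 9.21, 9.23 and 9.20 untreated and 8.94, 8.99 and 8.86 with NRG1, a fall of 0.28 ± 0.061 (SE) with the groups apart (limma over all probe sets, adjusted p = 0.0076). Igf1r, the receptor for insulin-like growth factors, was at 8.95 ± 0.090 untreated and 8.89 ± 0.035 with NRG1 (SD, n = 3 each) and was not called (-0.056; limma, adjusted p = 0.621). Insrr, the insulin receptor-related gene, differed by -0.20 with the groups apart and was not called (limma, adjusted p = 0.0746), although 3 of 15 settings called it.

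The receptors best known from blood vessels, blood cells and connective tissue had mean signals below the median level and no calls. Pdgfra and Pdgfrb, the platelet-derived growth factor receptors, differed by -0.028 and 0.19 (limma, adjusted p = 0.882 and 0.169). Csf1r, the macrophage growth factor receptor, differed by 0.047, and Flt3, a receptor of blood progenitors, by -0.20 with the groups apart (limma, adjusted p = 0.78 and 0.0556). Flt3 was called under 2 of 15 settings, the fit without untreated replicate 1 (adjusted p = 0.0481) and the one that left out the dimmest 25% of genes (0.0329). Flt1, Kdr and Flt4, the VEGF receptors, differed by -0.19, -0.21 and 0.0035 (limma, adjusted p = 0.137, 0.112 and 0.988), and Tek and Tie1, the angiopoietin receptor and its partner, by -0.052 and -0.056. Flt1 was called without untreated replicate 2 (adjusted p = 0.0443) and with array weights (0.0225), and Kdr with array weights (0.0178). Pdgfra and Kdr are the immediate neighbours of Kit on either side on chromosome 5, and Kit, the stem cell factor receptor gene, fell by 1.36 ± 0.059 (SE; limma, adjusted p = 1.59e-07). Neither neighbour was called.

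Markers of the cell types in which these receptors are best known were read beside them. For comparison, 12.3% of all genes rose and 8.56% fell, and 33.3% of genes above the median level were called. Of 12 endothelial markers 1 rose (Eng, by 0.62), 2 fell (Egfl7 by 0.34 and Esam by 0.23) and 9 were not called, with a median difference of -0.093. Their summed linear signal was 1934 to 1976 with NRG1 and 1817 to 1849 untreated. Eng, the brightest of the 12, weighs most in that sum. Esam was not called without NRG1 replicate 1 or 2 or untreated replicate 3 (adjusted p from 0.0602 to 0.116). Of 12 macrophage and mast cell markers 1 rose (Cd68, by 0.23), a call that ended after quantile normalization or centring and in 4 of the 6 fits without an array (without NRG1 replicate 1 or 3 or untreated replicate 2 or 3, adjusted p from 0.0647 to 0.13). The sums there were 792 to 833 with NRG1 and 772 to 842 untreated. Of 12 fibroblast markers Postn (1.88), Col1a1 (0.86) and Fbln1 (0.51) rose, 0 fell and 9 were not called, with a median difference of -0.053. The sums, in which bright genes weigh most, were 1970 to 1983 with NRG1 and 1491 to 1584 untreated. After quantile normalization 1 of the 12 fell, and 2 after centring. Keratinocyte markers gave 0 calls among 12, the smallest p being that of Perp at -0.14 (limma, adjusted p = 0.144), with sums of 1061 to 1115 and 1056 to 1161. Of 9 Schwann cell markers Cdh19 (0.38) and Gfap (0.24) rose and S100b fell by 0.27, with sums of 6330 to 6428 and 5822 to 6137. Gfap lost its call with the replicate block (adjusted p = 0.0557), against the minimum change and in 5 of the 6 fits without an array (all but that without untreated replicate 1, adjusted p from 0.0517 to 0.142). S100b lost its call against the minimum change and without NRG1 replicate 3 (adjusted p = 0.0791). The calls of Fbln1, Egfl7, Esam, Cd68 and Cdh19 ended against the minimum change too. The part of these cell types in the receptor values was not tested. All 12 melanocyte markers were above the array median on every array, in both groups, while 1 macrophage and mast cell marker, 1 keratinocyte marker, 3 endothelial, 5 fibroblast and 6 of the 9 Schwann cell markers were. Of the melanocyte markers 10 fell, among them Gpr143 (by 1.53), Kit and Ednrb (by 1.17), and Mc1r rose by 0.32. The Mc1r call ended against the minimum change. The sums of the 12 were 50193 to 51369 with NRG1 and 68939 to 69537 untreated. The called share of the melanocyte markers was 91.7%, against 20.9% of all genes and 33.3% of genes above the median level. In the other cell type lists the called share ran from 0% of keratinocyte markers to 33.3% of Schwann cell markers. Counts of that size were not tested against the share over all genes.

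The remaining receptors were not called. Ddr1 and Ddr2, which bind collagen, differed by 0.043 and -0.16 (limma, adjusted p = 0.71 and 0.25), and Ddr2 was called without untreated replicate 2 (adjusted p = 0.022) and with array weights (0.018). Ret, the receptor for the GDNF family, differed by -0.12, and Ntrk2 and Ntrk3, neurotrophin receptors, by -0.032 and 0.018. Alk and Ltk, which answer the ALKAL peptides, differed by -0.043 and 0.0027, and Ros1, whose product binds NELL2 in the epididymis, by -0.028. Ryk and Ptk7, both linked to Wnt signalling, differed by 0.074 and -0.081, and Lmtk2 and Styk1, distant relatives of the class, by -0.11 and -0.019. Among the receptors without a call, Ryk, Ddr1, Lmtk2, Tyro3, Igf1r, Mertk, Ror2, Fgfr4 and Ltk had mean signals above the median level of all genes. Over all 30 receptors that were not called, the largest difference in size was 0.21 and the 95% intervals of the differences lay between -0.39 and 0.39.

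Partners of the receptors changed in both directions too. Of 43 measured ligand genes 9 rose, 4 fell and 30 were not called, a called share of 30.2% against 20.9% of all genes, with 12 of the 43 above the median on every array. Pros1, which encodes protein S, a ligand of TYRO3 and MERTK, gave 7.32, 7.49 and 7.18 untreated and 10.11, 10.25 and 10.22 with NRG1. The NRG1 arrays lay far above the others, a rise of 2.87 ± 0.084 (SE) or 7.29-fold (limma, adjusted p = 1.15e-08), which is rank 12 of the rises over all genes. Agrn, the agrin gene, rose by 0.89, and Pdgfb, the PDGF B chain gene, by 0.84 (limma, adjusted p = 5.63e-06 and 0.00116). Vegfc, the ligand gene for the lymphatic VEGF receptor, fell by 1.07 ± 0.091 (SE; limma, adjusted p = 1.61e-05), Vegfb by 0.46 and Wnt5a, whose product binds ROR receptors, by 0.35. The fourth fall was that of Fgf13 (0.35), which belongs to the FGF family by sequence but acts inside the cell. Among the ligand falls, only that of Vegfc was kept against the minimum change.

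Further ligands and a regulator were named after the values were seen. Hgf, which encodes the ligand of MET, was dim at 5.33 ± 0.198 untreated and 5.15 ± 0.006 with NRG1 (SD, n = 3 each) and was not called (limma, adjusted p = 0.201). Gas6, the ligand gene for AXL, differed by -0.073 (limma, adjusted p = 0.582). Fgf2, basic FGF, rose by 0.34 (limma, adjusted p = 0.00969). It was dim too, at 5.64 ± 0.124 untreated and 5.99 ± 0.084 with NRG1 (SD, n = 3 each). The Fgf2 call ended against the minimum change. Fgf1, acidic FGF, rose by 0.34 (limma, adjusted p = 0.02), but the call ended without NRG1 replicates 2 and 3 (adjusted p = 0.072 and 0.0614) and without untreated replicate 1 (0.0843), after quantile normalization (0.0692) and against the minimum change. The other 8 measured FGF ligand genes, Fgf5, Fgf7, Fgf9, Fgf10, Fgf18, Fgf20, Fgf21 and Fgf23, were not called, with differences from -0.10 to 0.23 (limma, smallest adjusted p = 0.0706). Igf1 and Igf2, ligand genes of the insulin receptor family, were not called either, at -0.060 and -0.079 (limma, adjusted p = 0.588 and 0.637). Of further ligands whose receptors were not called, Pdgfa rose by 0.69 and Vegfa by 0.55 (limma, adjusted p = 5.75e-05 and 0.000383). Pgf and Artn, ligand genes of such receptors too, rose by 0.48 and 0.39 (limma, adjusted p = 0.00317 and 0.00391). Il17rd, a membrane antagonist of FGF signalling, rose by 0.51 (limma, adjusted p = 0.000344).

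**Figure D3:**
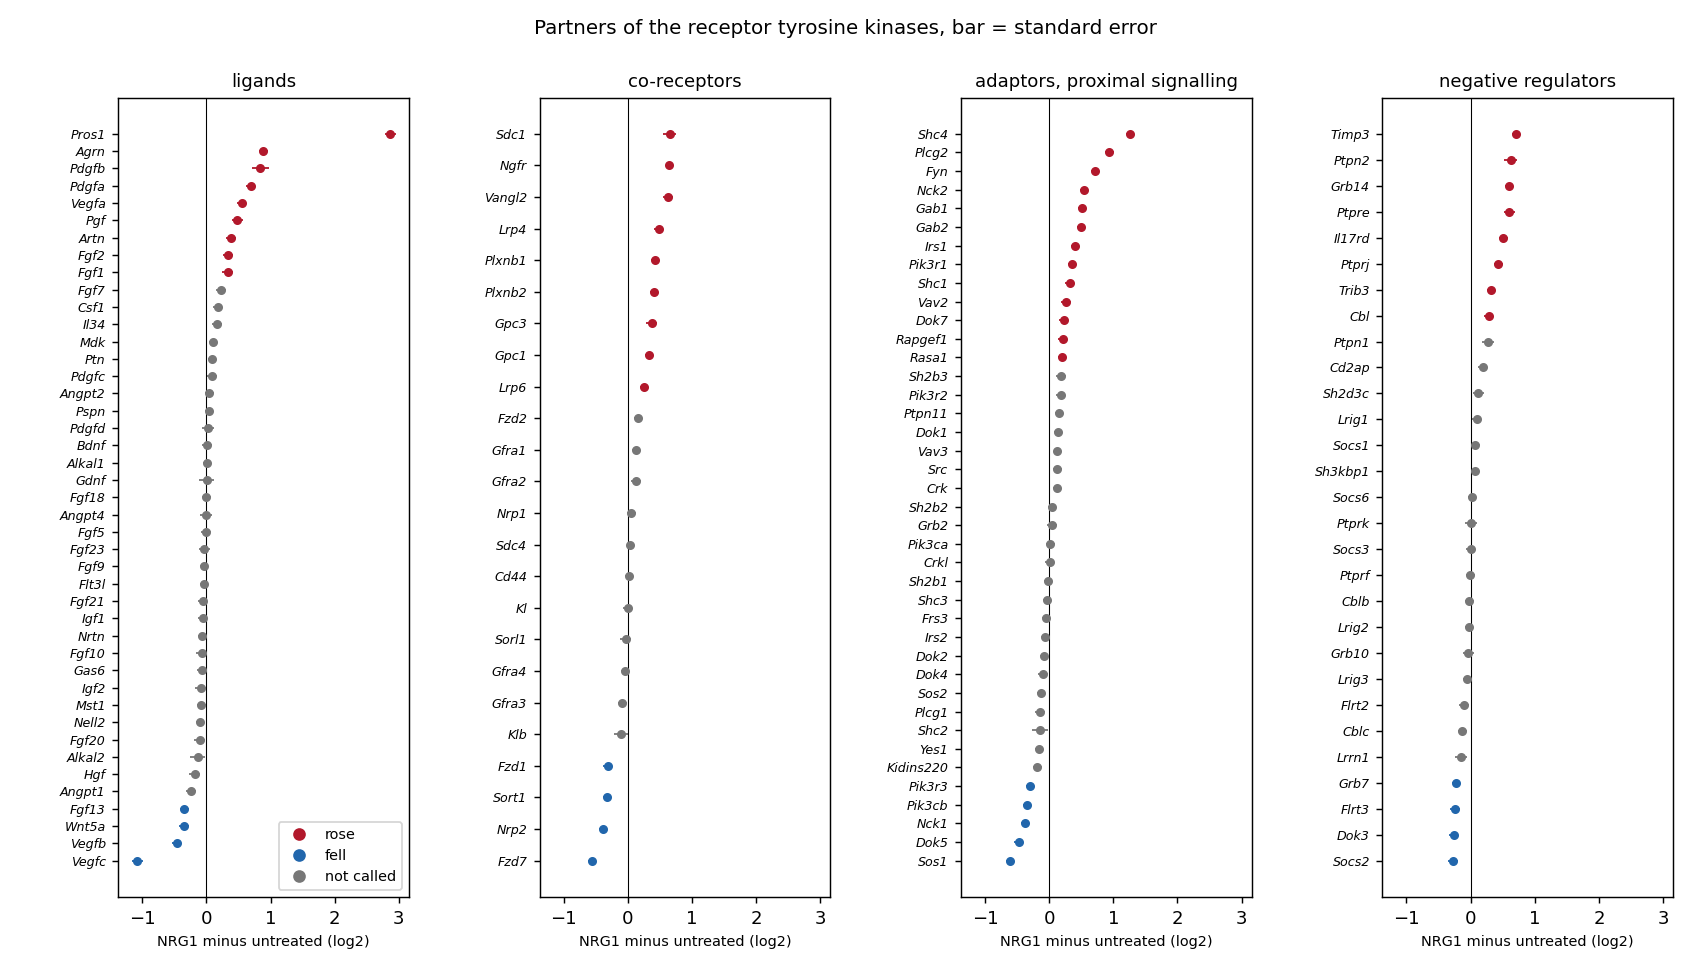
Differences between NRG1 and untreated cells in log2 units, with standard errors, for measured ligands (43), co-receptors (24), adaptors and proximal signalling genes (40) and negative regulators (29) of receptor tyrosine kinases. Red points rose, blue points fell and grey points were not called. Pros1, at 2.87, is the largest rise and Vegfc, at -1.07, the largest fall among them.

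Among 24 co-receptors 9 rose, 4 fell and 11 were not called. The called share was 54.2%, against 20.9% of all genes and 33.3% of genes above the median level, where 15 of the 24 lay on every array. Sdc1, the heparan sulfate proteoglycan syndecan 1, rose by 0.65, Ngfr, the low-affinity neurotrophin receptor, by 0.65 and Vangl2, a planar polarity protein that works with ROR2, by 0.62 (limma, adjusted p = 0.000939, 2.84e-05 and 0.000271). Fzd7, a Wnt receptor, fell by 0.56, Nrp2, a co-receptor for VEGF-C, by 0.39, the sorting receptor gene Sort1 by 0.32 and Fzd1 by 0.31. Against the minimum change, only the fall of Fzd7 was kept. Cd44, a partner of MET in some cells, was not called at 0.019 (limma, adjusted p = 0.876).

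The 40 adaptor and proximal signalling genes held 13 rises and 5 falls beside 22 without a call, and after quantile normalization 9 fell. The called share was 45%, against 20.9% of all genes and 33.3% of genes above the median level. On every array 32 of the 40 lay above the median. Shc4, a member of the SHC adaptor family, rose 2.40-fold, by 1.26 ± 0.059 (SE; limma, adjusted p = 2.28e-07). The phospholipase gene Plcg2 rose by 0.94 and the SRC-family kinase gene Fyn by 0.72. Sos1, which encodes the exchange factor that links GRB2 to RAS, fell by 0.60 ± 0.062 (SE; limma, adjusted p = 5.89e-05). The other falls were those of the adaptor genes Dok5 (0.47) and Nck1 (0.37), the PI3K catalytic subunit gene Pik3cb (0.35) and the regulatory subunit gene Pik3r3 (0.30). Of these falls, only that of Sos1 was kept against the minimum change of 1.2-fold.

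Of 29 genes listed as negative regulators 8 rose, 4 fell and 17 were not called. The called share of 41.4% stands against 20.9% of all genes and 33.3% of genes above the median level. On every array 15 of the 29 lay above the median. Timp3, a protease inhibitor known to block VEGF binding to its receptor, rose by 0.71, Ptpn2, a tyrosine phosphatase, by 0.63 and Grb14, an inhibitor of the insulin receptor, by 0.61 (limma, adjusted p = 2.50e-05, 0.00112 and 7.27e-05). The falls were 0.28 for Socs2 (0.51 as the mean of its probe sets), 0.26 for Dok3, 0.25 for Flrt3 and 0.23 for Grb7. Flrt3 and Grb7 do not act as the list's name says, since FLRT3 is known from Xenopus to promote FGF signalling and GRB7 is an adaptor. Each of these 4 calls ended against the minimum change and in several fits without an array. For Socs2 the fits without an array were those without NRG1 replicates 1 and 3 and untreated replicate 1 (adjusted p from 0.0671 to 0.101). For Dok3 they were those without NRG1 replicates 2 and 3 and untreated replicates 1 and 3 (0.0531 to 0.0836). For Flrt3 they were those without each NRG1 replicate and untreated replicates 1 and 2 (0.0552 to 0.144), and for Grb7 those without NRG1 replicates 2 and 3 and untreated replicates 1 and 2 (0.056 to 0.0988).

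The calls of Fgfr2, Met, Ror1 and Fgfrl1 were kept under all 16 alternative settings, with ranges of -2.03 to -1.82, -0.86 to -0.80, -0.68 to -0.58 and 0.54 to 0.64. Fgfr1 was kept under 15, and missed it where a change had to exceed 1.2-fold (limma treat, adjusted p = 0.248). Axl was kept under 14 and Insr under 9.

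**Figure D4:**
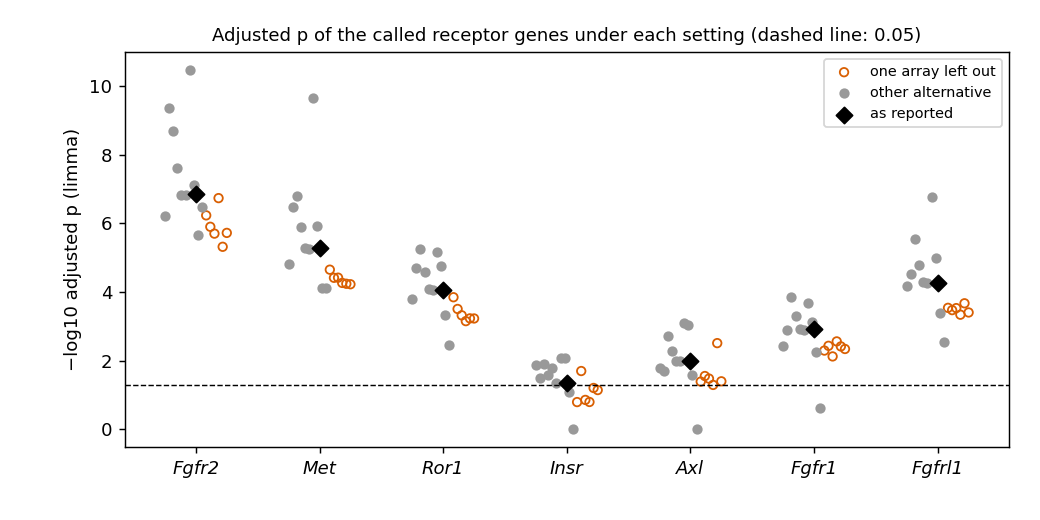
The −log10 of the adjusted p from limma for each of the 7 called receptors, as reported (black diamonds), with an array left out (open orange circles) and under the other alternatives (grey), with a dashed line at a p of 0.05. Insr lies below the line in 7 of 16 settings, Axl in 2, Fgfr1 in 1, and Fgfr2, Met, Ror1 and Fgfrl1 in 0.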

How the data were processed

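Transcript levels of 6 samples, 3 NRG1 and 3 untreated, came from Affymetrix Gene 1.0 ST arrays, with groups and replicate numbers taken from the sample titles. The deposited table holds log2 values, which the authors made with RMA and GCOS per the submitters' processing notes, without naming settings or versions. That the scale is log2 follows from the values, which lay between 2.34 and 14.6 with array medians of 6.99 to 7.07. An array has no read depth, and 3 arrays per group set the precision: over all genes the median SE of a difference was 0.071.

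Gene names came from GEO's platform annotation and were brought to RefSeq symbols (GRCm38.p6) by Entrez number. Of 35557 probe sets, 21789 had 1 gene, 1621 several and 12147 none. The brightest probe set of each gene was kept, which left 19938 genes without a filter on level. The test was 2-sided, by lmFit and eBayes of limma 3.58.1 (R 4.3.3), with Benjamini-Hochberg adjustment over all genes. Pairs within families were compared by exact permutation (scipy 1.17.1). Differences are NRG1 minus untreated. On simulated data with 200 changed genes among 19938, 98.4% of changes of 0.5 and 100% of changes of 1 were recovered, and 5.82% of calls were false. The simulated arrays were independent normal draws with the spread that limma had estimated. These shares hold for that setting and do not give the false share among the 4168 genes called in the real data.

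The members, the 10 partner and marker lists (205 of 212 entries measured) and the motifs were chosen with earlier results of these data known. From each list, up to 3 called genes per direction were named, or the gene with the smallest p where none was called. The further genes Hgf, Gas6, Fgf1, Fgf2, Pdgfa, Vegfa, Fgf13, Il17rd, Cd44, Grb7, Fzd1, Pik3cb and Pik3r3 were named after their values were seen. The same holds for Pgf and Artn. Alternatives were other normalizations, filters, probe set rules, variance models, array weights, a replicate block, a minimum change and leaving out each array. The background correction could not be varied without probe-level signals.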

Additional observations from a re-analysis of the deposited data

How the results depend on the processing

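The counts of 3 receptors that rose and 4 that fell became 1 that rose against a minimum change of 1.2-fold and 9 that fell with array weights. Without an array, 2 to 3 rose and 3 to 6 fell, the latter number without untreated replicate 2, and the median difference ran from -0.073 to -0.022. With the replicate number as a replicate block, 3 rose and 3 fell, the lost call being that of Insr, and calls over all genes went from 4168 to 3609. Same-numbered arrays did not deviate together (correlations of -0.095, -0.16 and 0.074), so the numbers were not taken as pairs. In the lists, quantile normalization gave 9 falls of adaptors, 1 fall of a fibroblast marker, 2 rises of endothelial markers and 0 rises of macrophage and mast cell markers, and centring gave 2 falls of fibroblast markers and 0 rises of macrophage and mast cell markers. Quantile normalization moved the share of rises among all calls from 59.0% to 48.5%, and left 3 rises and 4 falls among the receptors. With array weights 6088 genes were called, and 1225 against the minimum change. Of the values of single receptors under the alternatives, 544 kept their side of the threshold, 10 lost the call and 12 gained it. No called value changed its sign. A different background correction was not run, since it needs signals of single probes.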
